A study of Mus musculus with 15 samples.

Results

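The genes described here are 49 genes of the cell division cycle, chosen by symbol out of 23995 gene symbols measured in periprostatic fat, the white fat pad beside the prostate, of male C57BL/6J mice. They were grouped by what their proteins do: 13 act in S phase and DNA replication, 16 in mitosis and chromosome segregation, 12 are cyclins or cyclin-dependent kinases, 4 are inhibitors of those kinases and 4 are transcription factors of the cycle. All 49 symbols were found. RNA was sequenced from 15 mice in 3 groups of 5, 1 library per mouse. HFD estradiol mice ate a high fat diet with 60% of calories from fat and carried a 0.25 mg estradiol pellet under the skin that released hormone over 60 days. HFD placebo mice ate the same diet and carried a placebo pellet. LFD mice ate a low fat diet with 10% of calories from fat and had no pellet, so HFD placebo and LFD mice differed in both diet and implant. All mice started their diet at 6 weeks of age, the pellets followed after 12 weeks, and the fat was taken 8 weeks later at 26 weeks of age. The mice were intact wild-type males, each library came from the whole fat pad, and no cell type was isolated.

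A cell divides by copying its DNA in S phase and separating the copies in mitosis. D-type cyclins with Cdk4 or Cdk6 release E2F transcription factors from the retinoblastoma protein, and E2F then turns on replication genes. The DREAM complex, and separately Mybl2 and Foxm1, control the mitotic genes that follow. Mature fat cells have left the cycle, while adipocyte progenitors, endothelial cells and immune cells of the fat pad can divide, and macrophages are known to divide in the fat of obese mice. Cyclin-dependent kinase inhibitors oppose the cycle, and some of them are also abundant in cells that do not divide.

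Most of the replication and mitotic genes were higher in HFD placebo fat than in LFD fat, and most were lower in HFD estradiol fat than in HFD placebo fat. Summed over the 16 mitotic genes, the level was 2.23, 1.75, 1.78, 1.17 and 1.49 scaled FPKM in HFD estradiol mice, against 8.44, 11.1, 12.5, 6.23 and 8.38 in HFD placebo mice and 1.80, 1.10, 2.21, 1.95 and 2.07 in LFD mice. Every HFD placebo mouse lay above every mouse of the other groups. FPKM counts sequenced fragments relative to transcript length and library size. Scaled FPKM is that value divided by a factor per library, so it is a level per transcript length. The kinase inhibitor Cdkn2c ran the other way, and the D-type cyclins differed from each other. No member differed between HFD estradiol and LFD fat by the tests below.

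The libraries were shallow for genes this low. A scaled FPKM of 1 in a transcript of 2 kb corresponded to an estimated 36.7 to 96.9 fragments in HFD estradiol libraries, 34.9 to 222 in HFD placebo libraries and 20.7 to 40.1 in LFD libraries. LFD libraries and HFD placebo libraries 1 to 3 came from sequencing lane 5, and HFD placebo libraries 4 and 5 and all HFD estradiol libraries from lane 6, so lane and group cannot be told apart for HFD estradiol against LFD. The tissue label fitted the adipocyte markers, since Adipoq averaged 161 scaled FPKM in HFD estradiol mice, 80.0 in HFD placebo mice and 166 in LFD mice. Fabp4 averaged 1061 in HFD estradiol mice, 743 in HFD placebo mice and 1079 in LFD mice. LFD mouse 5 stood apart through prostate and seminal vesicle epithelium markers, with a sum of 131 scaled FPKM, of which Spink3 gave 125. HFD placebo mouse 1 stood apart through erythroid markers, with a sum of 376.

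**Figure D1:**
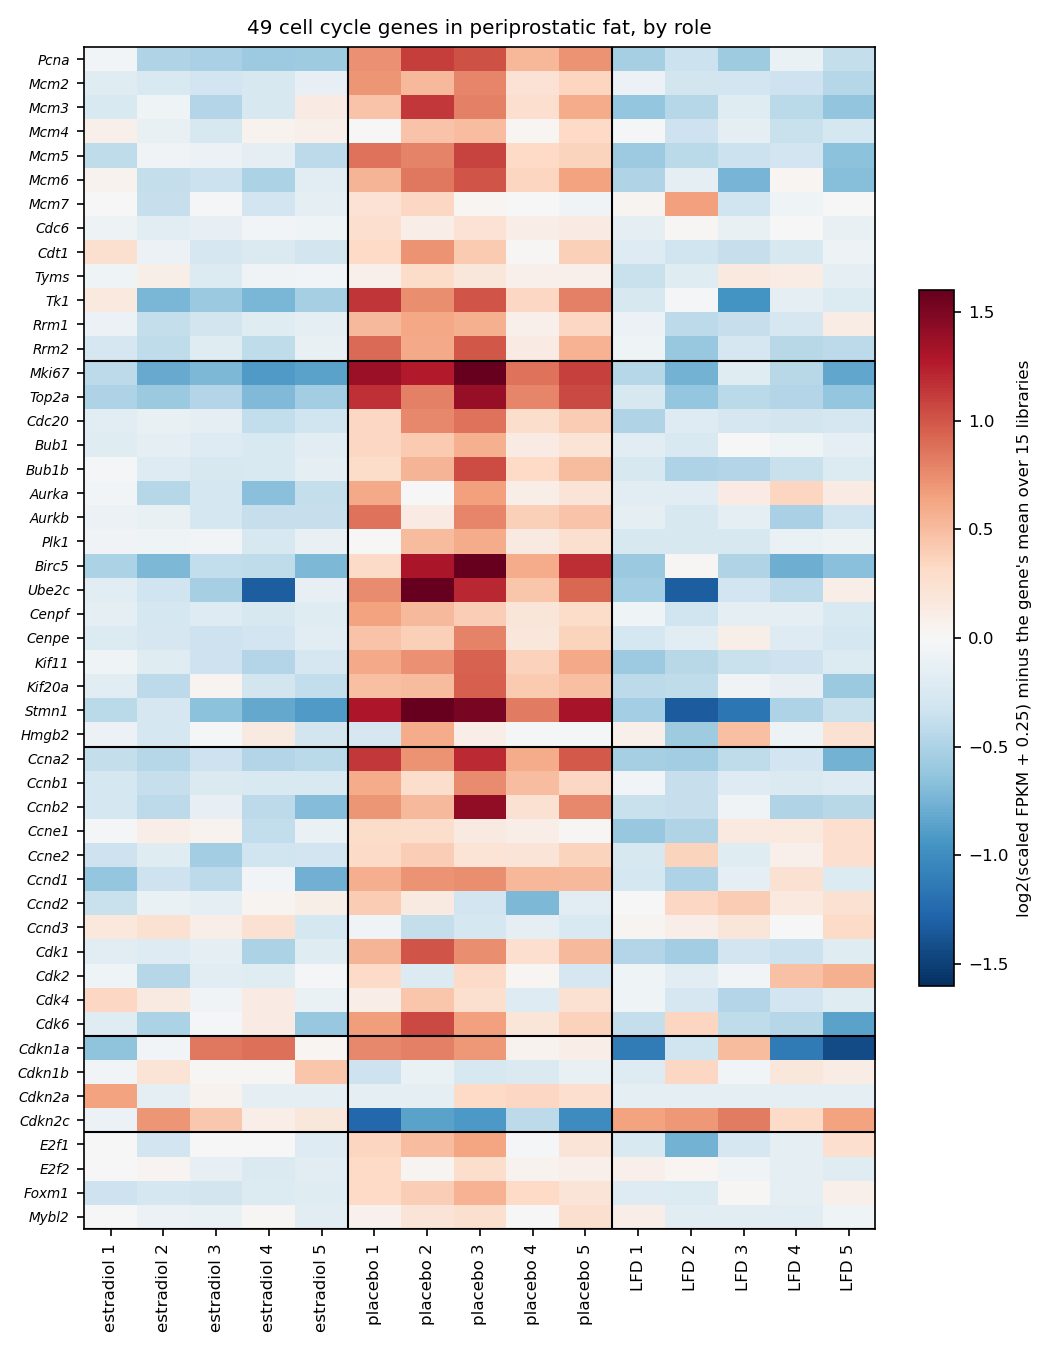
Levels of the 49 genes in 15 libraries, as log2(scaled FPKM + 0.25) minus the gene's own mean over the 15 libraries, with colours capped at the ends of the scale. Columns run HFD estradiol, HFD placebo and LFD, rows follow the 5 roles, and the 5 HFD placebo columns are red for most replication and mitotic genes and blue for Cdkn2c.

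Of the 49 members, 28 reached a scaled FPKM of 0.25 in 5 or more libraries, which was the filter for the main test. Of these, 11 reached it only through the HFD placebo libraries, so a count over the 28 is not a count over the list. With limma fitted to log2(scaled FPKM + 0.25) of the 10760 genes that passed, 21 of the 28 were higher and 2 lower in HFD placebo than LFD fat at an adjusted p below 0.05, where 17.2% and 17.3% of all genes tested were. The same fit without the filter covered all 49 members and 18880 genes. It called 36 of 49 higher and 2 lower, against 11.2% and 9.9% of all genes. The groups did not overlap for 30 members higher and 2 lower in HFD placebo fat, against 9.35% and 7.76% of 16111 genes. Within lane 5 the filtered fit called 21 of 28 higher and 2 lower, against 14.4% and 12.2% of all genes. It called 21 of 28 higher without LFD mouse 5 and 21 of 28 without HFD placebo mouse 1, against 16.3% and 15.4% of all genes.

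In HFD estradiol against HFD placebo fat, the unfiltered fit called 1 of 49 members higher and 35 lower, where it called 6.05% and 8.01% of all genes. The filtered fit called 3 of 28 higher and 18 lower, against 11% and 12.7% of all genes. Of those 28, 11 reached the filter only through HFD placebo libraries, where they were high. The filtered counts here, also those with the lane, are therefore not counts over the list. The groups did not overlap for 2 members higher and 33 lower, against 6.78% and 7.61%. With the lane as a term in the filtered fit, 1 of 28 was higher and 14 lower, against 3.37% and 4.42% of all genes. Within lane 6, which holds only 2 HFD placebo libraries, 1 of 28 was higher and 15 lower, against 3.59% and 4.67%. These 2 comparisons share the HFD placebo mice, so they are not independent of each other.

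In HFD estradiol against LFD fat, limma called 0 of 28 members with the filter and 0 of 49 without it. Unadjusted p was below 0.05 for 3 of 28 in the filtered fit, for 5 of 49 in the unfiltered fit and for 6 of 49 in the exact permutation test. Over all genes those shares were 18.1%, 14% and 13.9%. Among all genes 2.66% were called higher and 2.2% lower with the filter, and 1.28% and 0.964% without it. No member had groups that did not overlap, where 2.5% of all genes did in the higher and 2.22% in the lower direction. The 95% intervals of the 28 log2 fold changes had half-widths of 0.22 to 0.73, with a median of 0.31. Differences of that size were therefore not detectable. The intervals are not adjusted for the number of genes, so larger differences could be missed too. Cdkn1a, at 0.91, was not called.

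The 21 members below the filter were tested with an exact two-sided permutation test on the difference of mean scaled FPKM, adjusted over 16111 genes. Its smallest possible p with 5 mice against 5 is 0.00794. In HFD placebo against LFD fat 13 of the 21 reached it, all higher, with an adjusted p of 0.0464, where 9.35% of genes were called higher and 7.76% lower. That margin was narrow: using the FPKM as deposited, or leaving out any 1 LFD or HFD placebo library, left 0 calls. In HFD estradiol against HFD placebo fat the same smallest p became an adjusted p of 0.0552, so 0% of genes and none of the 21 were called, although 15 of the 21 had an unadjusted p of 0.00794. A count of 0 from this adjusted test says little, since in this design its smallest p passes only when very many genes differ. It also called 0% of genes in HFD estradiol against LFD fat.

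**Figure D2:**
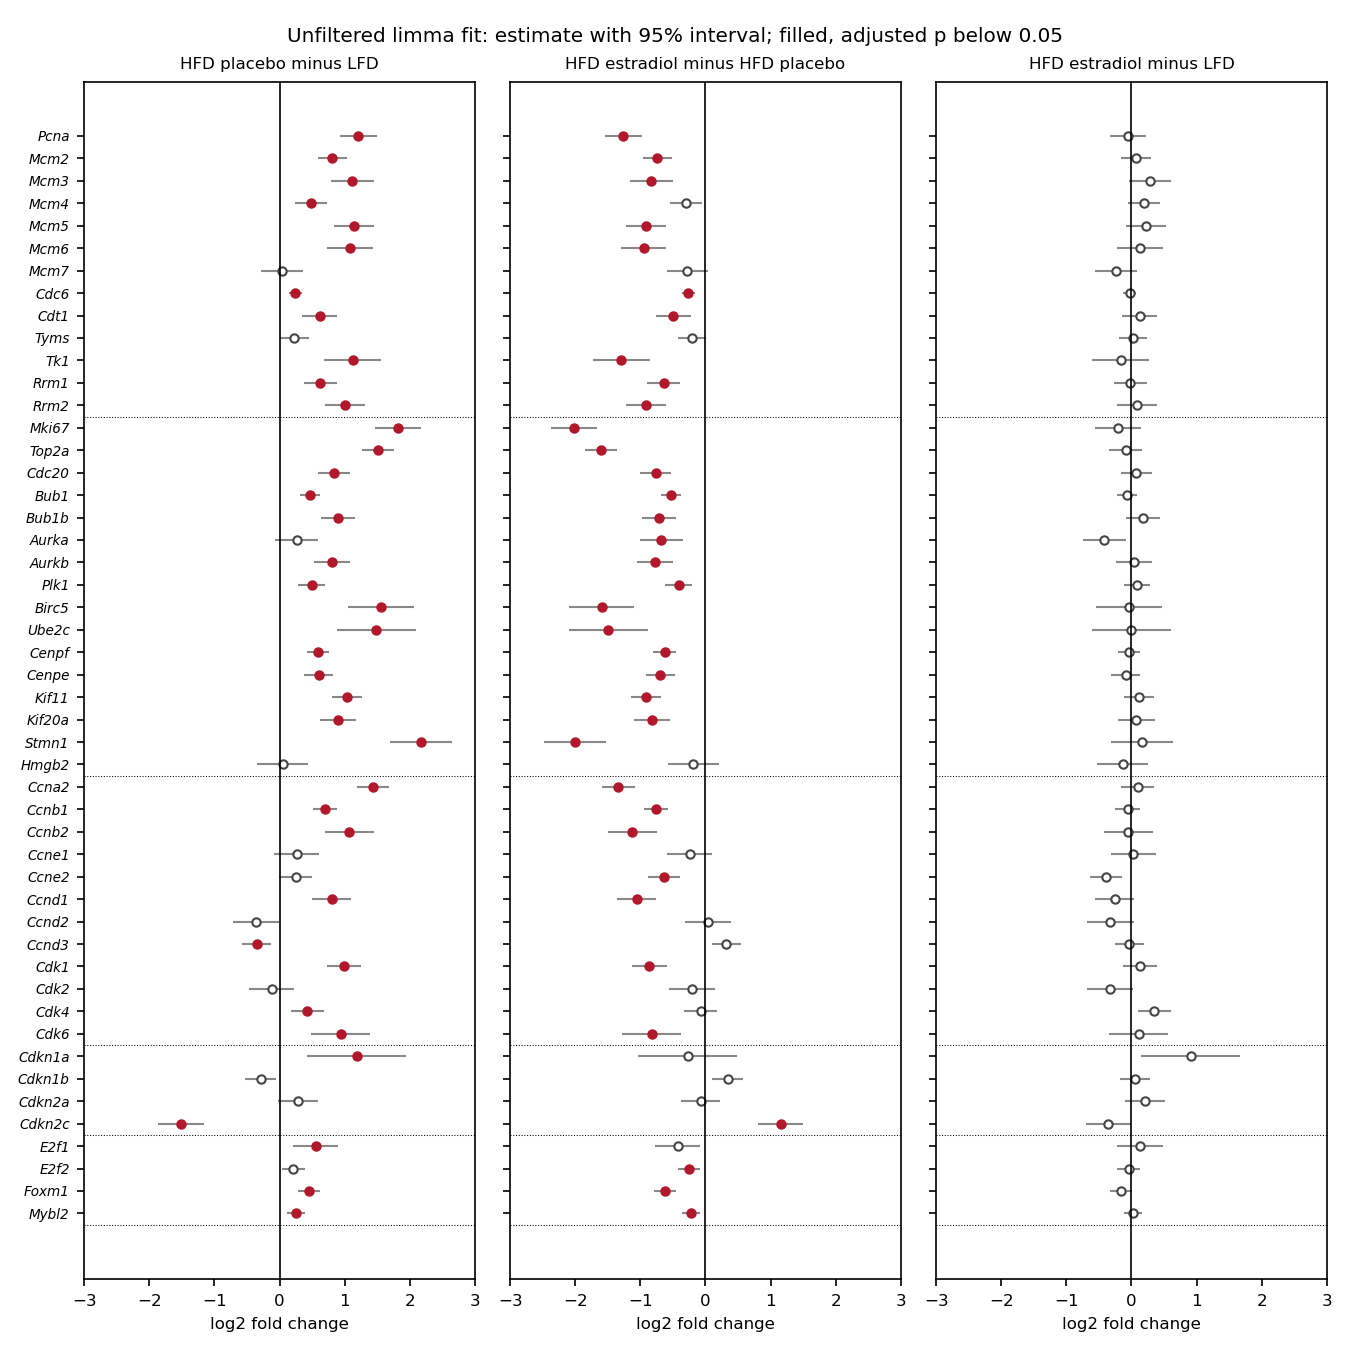
Log2 fold change of each of the 49 genes in the unfiltered limma fit, with its 95% interval, in the 3 comparisons, 1 panel each. Filled points passed an adjusted p of 0.05, 36 higher and 2 lower in the left panel, 1 higher and 35 lower in the middle and 0 in the right, and dotted lines part the 5 roles.

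The promoters of these genes are where E2F and DREAM are known to bind, so the stretch of 250 bases before the transcript start is printed for 2 replication genes, 2 mitotic genes, the kinase gene Cdk1 and the inhibitor gene Cdkn2c, all among the members whose levels are described next. The sequences are from RefSeq on build GRCm38.p6 and read 5′ to 3′ on the gene's strand. Capitals mark matches, on either strand, to the E2F letters TTTGGCGC, TTTCGCGC or TTTCCCGC, to the cell cycle homology region (CHR) letters TTTGAA or TTCGAA, or to the CCAAT box, which reads ATTGG on the other strand.
Mcm5, chr8:75109259-75109508, + strand: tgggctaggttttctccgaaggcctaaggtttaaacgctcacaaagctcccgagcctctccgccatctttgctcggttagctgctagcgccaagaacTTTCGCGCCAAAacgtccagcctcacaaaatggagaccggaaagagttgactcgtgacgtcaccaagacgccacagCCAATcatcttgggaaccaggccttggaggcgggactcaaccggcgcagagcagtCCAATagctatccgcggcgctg
Mcm6, chr1:128359706-128359955, - strand: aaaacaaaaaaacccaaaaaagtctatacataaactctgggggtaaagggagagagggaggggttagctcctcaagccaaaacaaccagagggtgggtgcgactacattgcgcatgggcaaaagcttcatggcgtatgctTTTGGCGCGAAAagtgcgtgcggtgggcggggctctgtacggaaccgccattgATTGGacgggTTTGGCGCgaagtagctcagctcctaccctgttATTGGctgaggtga
Mki67, chr7:135716380-135716629, - strand: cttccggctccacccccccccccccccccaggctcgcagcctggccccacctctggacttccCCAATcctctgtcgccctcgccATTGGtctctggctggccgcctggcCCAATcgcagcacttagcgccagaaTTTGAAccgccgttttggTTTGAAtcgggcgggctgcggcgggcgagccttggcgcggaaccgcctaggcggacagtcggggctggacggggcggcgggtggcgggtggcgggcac
Top2a, chr11:99024190-99024439, - strand: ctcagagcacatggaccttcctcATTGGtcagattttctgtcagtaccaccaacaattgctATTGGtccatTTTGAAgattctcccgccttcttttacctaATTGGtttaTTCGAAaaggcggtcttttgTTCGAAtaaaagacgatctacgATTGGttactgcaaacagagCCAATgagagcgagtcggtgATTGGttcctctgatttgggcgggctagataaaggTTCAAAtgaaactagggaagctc
Cdk1, chr10:69352913-69353162, - strand: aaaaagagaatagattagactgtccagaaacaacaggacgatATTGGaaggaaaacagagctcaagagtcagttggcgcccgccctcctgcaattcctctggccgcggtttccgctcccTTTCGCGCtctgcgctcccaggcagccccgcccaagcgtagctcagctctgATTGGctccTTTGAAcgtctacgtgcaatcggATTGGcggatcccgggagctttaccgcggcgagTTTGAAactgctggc
Cdkn2c, chr4:109666757-109667006, - strand: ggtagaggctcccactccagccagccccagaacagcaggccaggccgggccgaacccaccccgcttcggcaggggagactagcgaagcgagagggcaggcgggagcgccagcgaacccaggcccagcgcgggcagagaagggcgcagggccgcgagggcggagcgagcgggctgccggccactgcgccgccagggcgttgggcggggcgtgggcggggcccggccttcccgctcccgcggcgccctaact
Over the window of 250 bases before to 50 after the start, Mcm6 had 3 E2F matches and Mcm5 had 2. In each of these 2 genes, 2 of the matches overlapped on opposite strands of the same stretch, so they are not separate sites. Top2a had 4 CHR and 6 CCAAT matches and Mki67 had 2 and 3. Cdk1 held all 3 kinds, with 1 E2F, 2 CHR and 3 CCAAT matches. The Cdkn2c window printed here had none, and its other window had 1 CCAAT match.

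A RefSeq window was found for 40 of the 49 members, 46 windows in all, and 9 members had none. An E2F match was present in 6 of 13 windows of replication genes (46.2%, 95% exact binomial interval 19.2 to 74.9%) and in 0 of 13 windows of mitotic genes (up to 24.7%), against 1.84% of 32851 windows of all genes. A CHR match was present in 2 of 13 replication windows (15.4%) and in 11 of 13 mitotic windows (84.6%, interval 54.6 to 98.1%), against 19.2% of all windows. The CCAAT box was found in 9 of 13 replication windows (69.2%) and 12 of 13 mitotic windows (92.3%), against 37.4% of all. In 1 member window matches of 2 kinds shared a base. These shares describe letters in windows, base composition was not matched, and they are not evidence of binding in this tissue.

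**Figure D3:**
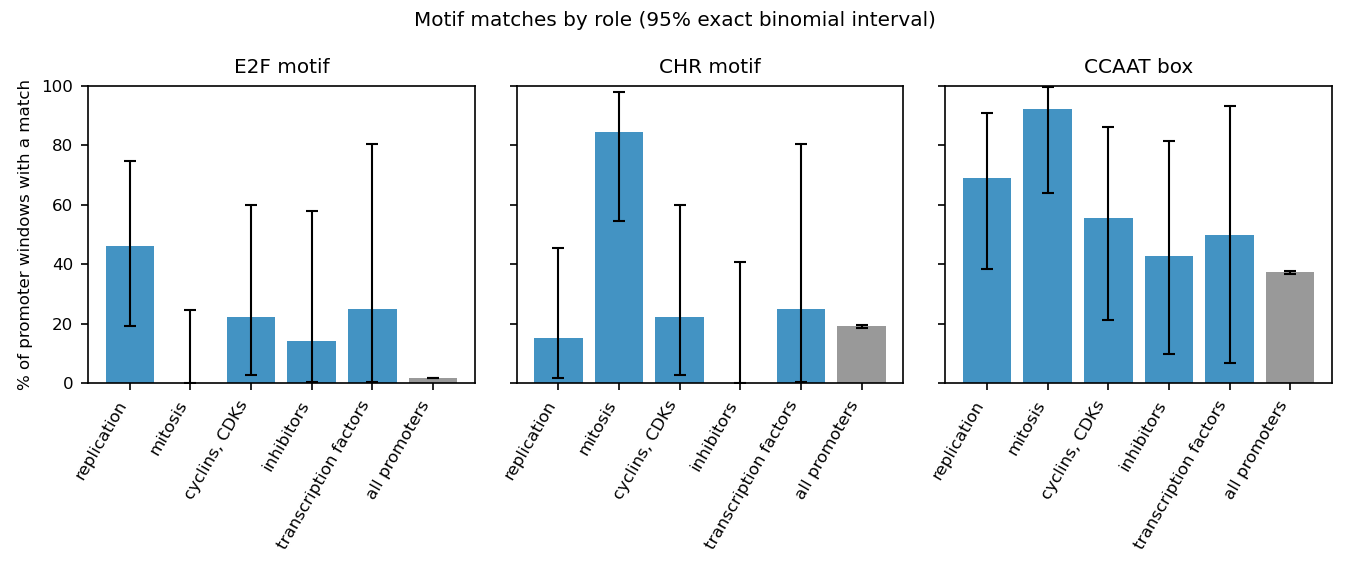
Share of promoter windows with at least 1 match to each motif, by role of the gene, beside all 32851 windows (grey), with 95% exact binomial intervals. The E2F bar is highest for replication genes (46.2%) and the CHR bar for mitotic genes (84.6%).

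Among the mitotic genes, the unfiltered fit called 14 of 16 higher and 0 lower in HFD placebo than LFD fat. Over all genes those shares were 11.2% and 9.9%. In HFD estradiol against HFD placebo fat the fit called 0 higher and 15 of 16 lower, against 6.05% and 8.01% of all genes. The median log2 fold change over the 16 was 0.87 and -0.77, beside 0.00 and 0.01 over all genes. Mki67 (chr7:135689784-135716361, GRCm38), whose protein coats mitotic chromosomes and serves as the usual marker of dividing cells, had 0.349, 0.206, 0.233, 0.176 and 0.190 in HFD estradiol mice, against 1.81, 1.68, 2.53, 1.20 and 1.45 in HFD placebo mice and 0.331, 0.223, 0.448, 0.336 and 0.197 in LFD mice. The HFD placebo mice did not overlap with either other group. Its log2 fold change was 1.82 ± 0.16 (SE, adjusted p = 9.32e-07) in HFD placebo against LFD fat and -2.02 ± 0.16 (SE, adjusted p = 1.09e-06) in HFD estradiol against HFD placebo fat. Within lanes these values were 2.02 (adjusted p = 2.73e-05) and -1.72 (adjusted p = 0.00137). The value for HFD estradiol against LFD fat was -0.20 ± 0.16 (SE, adjusted p = 0.557), with a 95% interval of -0.55 to 0.14.

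Top2a (chr11:98992943-99024189), the topoisomerase that untangles sister DNA, had 0.135, 0.108, 0.142, 0.083 and 0.118 in HFD estradiol mice, against 0.975, 0.700, 1.17, 0.683 and 0.880 in HFD placebo mice and 0.206, 0.105, 0.154, 0.143 and 0.103 in LFD mice. The lowest HFD placebo mouse was again above all mice of the other groups. The log2 fold changes were 1.52 ± 0.12 (SE, adjusted p = 4.19e-07) in HFD placebo against LFD fat and -1.61 ± 0.12 (SE, adjusted p = 5.33e-07) in HFD estradiol against HFD placebo fat. Stmn1 (chr4:134468320-134473843), a protein that takes microtubules apart, had 0.402, 0.478, 0.306, 0.248 and 0.218 in HFD estradiol mice, against 1.89, 3.27, 2.26, 1.32 and 1.94 in HFD placebo mice and 0.352, 0.098, 0.144, 0.370 and 0.434 in LFD mice. It had the largest log2 fold change of the 28 filtered members in HFD placebo against LFD fat, 2.17 ± 0.22 (SE, adjusted p = 2.02e-06), and was lower by -2.01 ± 0.22 (SE, adjusted p = 1.03e-05) in HFD estradiol fat. A pseudogene copy of Stmn1 is annotated. The sources used here do not say how reads were split between such copies.

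Birc5, the survivin subunit of the chromosomal passenger complex, had 0.076, 0.029, 0.102, 0.097 and 0.03 in HFD estradiol mice, against 0.322, 0.886, 1.43, 0.444 and 0.797 in HFD placebo mice and 0.055, 0.217, 0.08, 0.017 and 0.04 in LFD mice. Ube2c, the ubiquitin-conjugating enzyme of the anaphase-promoting complex, had 0.297, 0.248, 0.179, 0 and 0.317 in HFD estradiol mice, against 0.804, 1.71, 1.19, 0.593 and 0.923 in HFD placebo mice and 0.176, 0, 0.251, 0.216 and 0.422 in LFD mice. Both were high in every HFD placebo mouse, with log2 fold changes of 1.55 ± 0.23 (SE, adjusted p = 8.73e-05) for Birc5 and 1.49 ± 0.27 (SE, adjusted p = 0.000514) for Ube2c in HFD placebo against LFD fat. For HFD estradiol against HFD placebo fat they were -1.60 ± 0.23 (SE, adjusted p = 0.000130) and -1.49 ± 0.27 (SE, adjusted p = 0.000860). The Ube2c call was lost with the lane as a term (-1.17, adjusted p = 0.0544).

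Bub1b, a kinase-like protein of the spindle checkpoint, had 0.162, 0.115, 0.102, 0.106 and 0.127 in HFD estradiol mice, against 0.266, 0.365, 0.617, 0.275 and 0.351 in HFD placebo mice and 0.103, 0.05, 0.055, 0.079 and 0.112 in LFD mice. The motor protein Kif11, which pushes spindle poles apart, had 0.122, 0.092, 0.059, 0.032 and 0.075 in HFD estradiol mice, against 0.345, 0.397, 0.503, 0.255 and 0.341 in HFD placebo mice and 0.0097, 0.038, 0.056, 0.06 and 0.084 in LFD mice. Kif20a, a motor protein of cell cleavage, had 0.083, 0.032, 0.140, 0.059 and 0.036 in HFD estradiol mice, against 0.278, 0.285, 0.482, 0.254 and 0.276 in HFD placebo mice and 0.031, 0.033, 0.112, 0.093 and 0 in LFD mice. In all 3 genes the HFD placebo group stood above the other groups with no overlap. The log2 fold changes in HFD placebo against LFD fat were 0.90 ± 0.13 (SE, adjusted p = 6.56e-05) for Bub1b, 1.04 ± 0.12 (SE, adjusted p = 8.16e-06) for Kif11 and 0.89 ± 0.14 (SE, adjusted p = 0.000126) for Kif20a. The HFD estradiol against HFD placebo values were -0.72 ± 0.13 (SE, adjusted p = 0.000780), -0.92 ± 0.12 (SE, adjusted p = 5.72e-05) and -0.82 ± 0.14 (SE, adjusted p = 0.000477).

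The next mitotic genes were below the filter, where 1 fragment in a transcript of 2 kb was worth an estimated 0.0045 to 0.048 scaled FPKM, so single values rest on few fragments. Cdc20, the activator of the anaphase-promoting complex, had 0.059, 0.073, 0.068, 0.015 and 0.03 in HFD estradiol mice, against 0.191, 0.346, 0.391, 0.176 and 0.216 in HFD placebo mice and 0, 0.054, 0.04, 0.034 and 0.04 in LFD mice. The checkpoint kinase Bub1 had 0.0091, 0.017, 0.0066, 0 and 0.012 in HFD estradiol mice, against 0.124, 0.147, 0.189, 0.074 and 0.095 in HFD placebo mice and 0.011, 0, 0.047, 0.033 and 0.016 in LFD mice. Aurkb, the kinase of the passenger complex, had 0.085, 0.08, 0.046, 0.028 and 0.027 in HFD estradiol mice, against 0.404, 0.142, 0.368, 0.218 and 0.241 in HFD placebo mice and 0.076, 0.049, 0.072, 0 and 0.036 in LFD mice. All 3 were higher in HFD placebo than LFD fat by the exact permutation test (p = 0.00794, adjusted p = 0.0464). For HFD estradiol against HFD placebo fat the same exact p was 0.0552 after adjustment, with no overlap between the groups.

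Plk1, the polo-like kinase that starts mitosis, had 0.037, 0.035, 0.04, 0 and 0.024 in HFD estradiol mice, against 0.051, 0.175, 0.199, 0.08 and 0.108 in HFD placebo mice and 0, 0, 0, 0.027 and 0.032 in LFD mice. The kinetochore protein Cenpf had 0.04, 0.015, 0.03, 0.02 and 0.032 in HFD estradiol mice, against 0.256, 0.211, 0.174, 0.119 and 0.147 in HFD placebo mice and 0.058, 0.0081, 0.041, 0.041 and 0.024 in LFD mice. Cenpe, the motor protein that brings chromosomes to the spindle equator, had 0.047, 0.037, 0.025, 0.029 and 0.058 in HFD estradiol mice, against 0.224, 0.201, 0.349, 0.143 and 0.193 in HFD placebo mice and 0.036, 0.058, 0.119, 0.051 and 0.034 in LFD mice. These 3 also passed the exact permutation test in HFD placebo against LFD fat (adjusted p = 0.0464). Their unfiltered limma values in HFD estradiol against HFD placebo fat were -0.41 ± 0.10 (SE, adjusted p = 0.00851) for Plk1, -0.63 ± 0.08 (SE, adjusted p = 0.000131) for Cenpf and -0.69 ± 0.10 (SE, adjusted p = 0.000378) for Cenpe.

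Aurka and Hmgb2 were the members of this role that did not pass in HFD placebo against LFD fat. Aurka, the centrosome kinase, spanned 0 to 0.136 scaled FPKM in HFD estradiol mice, 0.147 to 0.381 in HFD placebo mice and 0.102 to 0.256 in LFD mice. It was lower in HFD estradiol than HFD placebo fat in the unfiltered fit, by -0.68 ± 0.15 (SE, adjusted p = 0.00735). Hmgb2, a chromatin protein that also occurs outside mitosis, had 0.195, 0.141, 0.218, 0.274 and 0.137 in HFD estradiol mice, against 0.143, 0.465, 0.261, 0.220 and 0.214 in HFD placebo mice and 0.250, 0.07, 0.410, 0.198 and 0.309 in LFD mice. Its groups overlapped, and its log2 fold changes were 0.05 ± 0.18 (SE, adjusted p = 0.860) and -0.19 ± 0.18 (SE, adjusted p = 0.518).

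**Figure D4:**
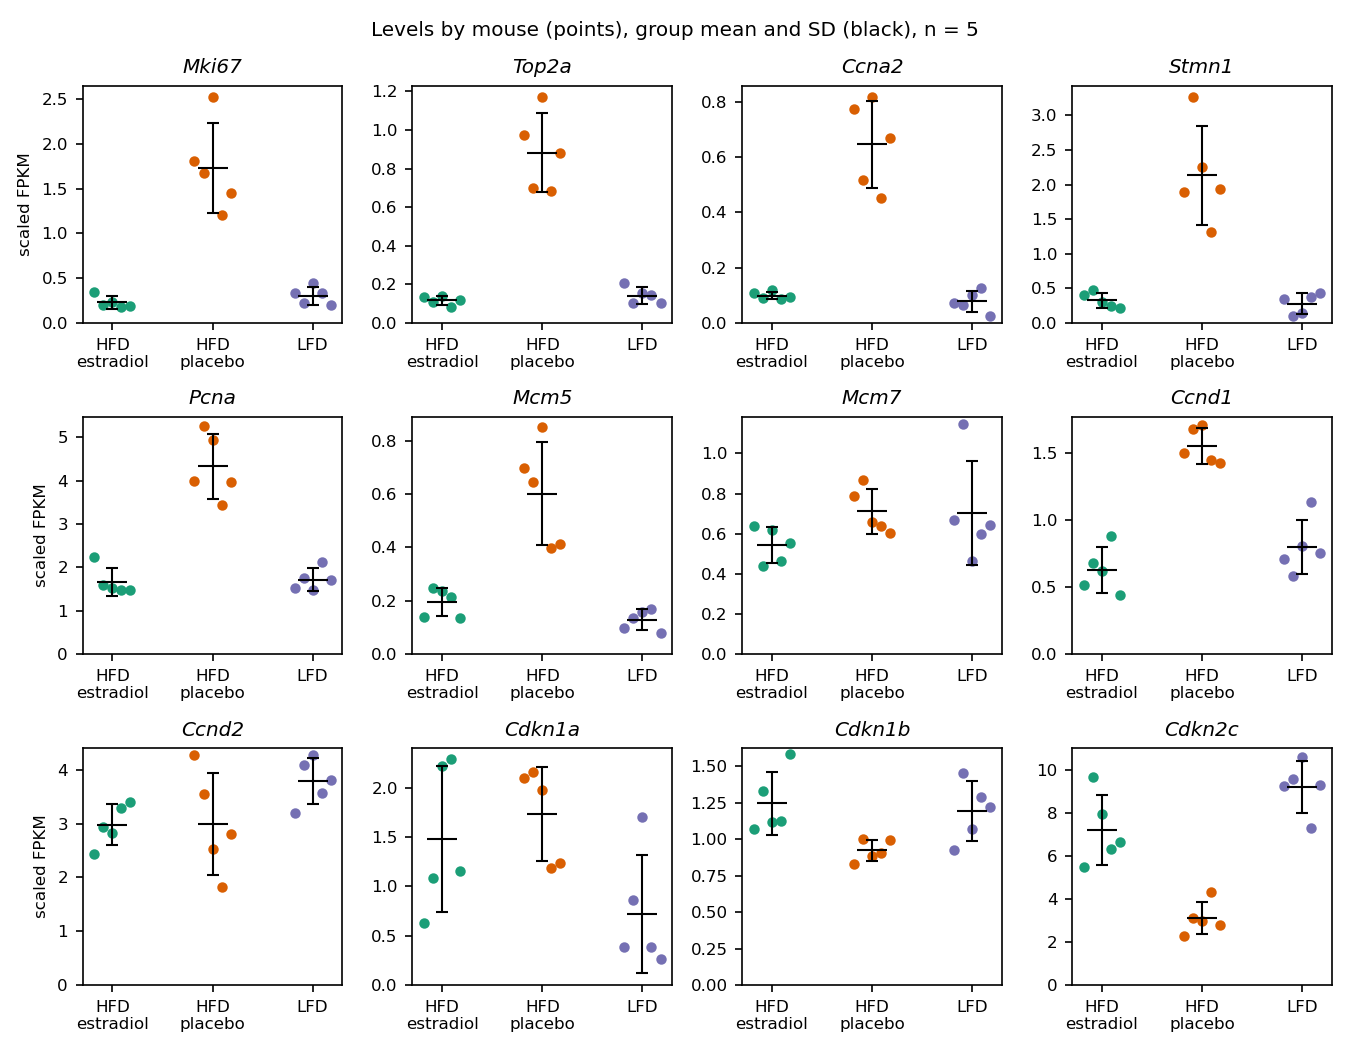
Scaled FPKM of 12 genes in each mouse (points), with the mean and SD of 5 mice (black). Mki67, Top2a, Ccna2, Stmn1, Pcna, Mcm5 and Ccnd1 are highest in HFD placebo mice, Cdkn2c is lowest there, and Mcm7 and Ccnd2 overlap among the groups.

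Among the 13 replication genes, 11 were higher in HFD placebo than LFD fat in the unfiltered fit and 10 were lower in HFD estradiol than HFD placebo fat, with none in the opposite direction, where 11.2% and 8.01% of all genes were. The summed level was 4.62 ± 0.68 scaled FPKM in HFD estradiol mice, 10.9 ± 2.03 in HFD placebo mice and 4.53 ± 0.50 in LFD mice (SD, n = 5 each). HFD placebo to LFD stood at a ratio of 2.40 overall and 2.68 within lane 5, and HFD estradiol to HFD placebo at 0.424 overall and 0.514 within lane 6. For the mitotic sum those ratios were 5.10 and 5.84, and 0.180 and 0.230.

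Pcna (chr2:132249162-132253314), the sliding clamp of the replication fork, had 2.23, 1.58, 1.53, 1.46 and 1.48 in HFD estradiol mice, against 4.00, 5.27, 4.94, 3.45 and 3.98 in HFD placebo mice and 1.52, 1.76, 1.47, 2.12 and 1.72 in LFD mice. It was the most abundant of the 13, and its log2 fold changes were 1.21 ± 0.13 (SE, adjusted p = 3.8e-06) in HFD placebo against LFD fat and -1.26 ± 0.13 (SE, adjusted p = 8e-06) in HFD estradiol against HFD placebo fat. Processed pseudogene copies of Pcna are annotated.

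Mcm2 to Mcm7 form the ring that unwinds DNA. Mcm2 had 0.195, 0.178, 0.163, 0.178 and 0.216 in HFD estradiol mice, against 0.581, 0.479, 0.626, 0.346 and 0.398 in HFD placebo mice and 0.226, 0.165, 0.162, 0.156 and 0.122 in LFD mice. Mcm3 had 0.265, 0.332, 0.192, 0.264 and 0.418 in HFD estradiol mice, against 0.590, 1.09, 0.822, 0.489 and 0.672 in HFD placebo mice and 0.150, 0.195, 0.286, 0.204 and 0.144 in LFD mice. Mcm4 had 0.460, 0.368, 0.313, 0.448 and 0.462 in HFD estradiol mice, against 0.423, 0.673, 0.698, 0.439 and 0.590 in HFD placebo mice and 0.410, 0.284, 0.360, 0.276 and 0.304 in LFD mice. For Mcm2, Mcm3 and Mcm4 every HFD placebo mouse was above every LFD mouse, while Mcm4 overlapped between HFD estradiol and HFD placebo mice. Mcm5 had 0.140, 0.248, 0.236, 0.213 and 0.137 in HFD estradiol mice, against 0.699, 0.644, 0.850, 0.399 and 0.414 in HFD placebo mice and 0.097, 0.136, 0.159, 0.171 and 0.08 in LFD mice. Mcm6 had 0.638, 0.408, 0.422, 0.353 and 0.506 in HFD estradiol mice, against 1.00, 1.29, 1.48, 0.837 and 1.09 in HFD placebo mice and 0.364, 0.516, 0.260, 0.629 and 0.285 in LFD mice. Mcm7 had 0.637, 0.437, 0.616, 0.466 and 0.553 in HFD estradiol mice, against 0.788, 0.869, 0.660, 0.636 and 0.601 in HFD placebo mice and 0.668, 1.15, 0.464, 0.597 and 0.641 in LFD mice. Mcm5 and Mcm6 were separated in the same way, and Mcm7 was not, with LFD mouse 2 the highest of all 15. Of the windows not printed, 1 of Mcm7 held 2 E2F matches and that of Mcm2 held 0.

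The log2 fold changes in HFD placebo against LFD fat were 0.81 ± 0.11 (SE, adjusted p = 4.29e-05) for Mcm2, 1.12 ± 0.15 (SE, adjusted p = 3.78e-05) for Mcm3, 0.49 ± 0.12 (SE, adjusted p = 0.00432) for Mcm4, 1.15 ± 0.15 (SE, adjusted p = 1.9e-05) for Mcm5, 1.08 ± 0.16 (SE, adjusted p = 8.63e-05) for Mcm6 and 0.04 ± 0.15 (SE, adjusted p = 0.854) for Mcm7. Of the 6 ring subunits, 5 were therefore called and Mcm7 was not. The HFD estradiol against HFD placebo values were -0.74 ± 0.11 (SE, adjusted p = 0.000187) for Mcm2, -0.84 ± 0.15 (SE, adjusted p = 0.000890) for Mcm3, -0.29 ± 0.12 (SE, adjusted p = 0.0863) for Mcm4, -0.91 ± 0.15 (SE, adjusted p = 0.000285) for Mcm5, -0.95 ± 0.16 (SE, adjusted p = 0.000477) for Mcm6 and -0.28 ± 0.15 (SE, adjusted p = 0.199) for Mcm7. Mcm4 and Mcm7 did not pass there, although Mcm4 did without HFD placebo mouse 1 (adjusted p = 0.0455) or mouse 4 (adjusted p = 0.0487). The Mcm3 call was lost with the lane as a term (-0.62, adjusted p = 0.0640) and within lane 6 (adjusted p = 0.0605).

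Another set of members supplies deoxynucleotides. Rrm1, the large subunit of ribonucleotide reductase, had 0.524, 0.385, 0.424, 0.472 and 0.491 in HFD estradiol mice, against 0.933, 1.02, 0.969, 0.625 and 0.788 in HFD placebo mice and 0.519, 0.369, 0.389, 0.435 and 0.646 in LFD mice. Rrm2, its small subunit, had 0.066, 0.035, 0.082, 0.037 and 0.098 in HFD estradiol mice, against 0.462, 0.329, 0.504, 0.166 and 0.305 in HFD placebo mice and 0.112, 0, 0.064, 0.028 and 0.032 in LFD mice. Tk1, the thymidine kinase of dividing cells, had 0.291, 0.041, 0.07, 0.042 and 0.084 in HFD estradiol mice, against 0.819, 0.562, 0.725, 0.358 and 0.593 in HFD placebo mice and 0.154, 0.225, 0, 0.189 and 0.166 in LFD mice. All 3 were high in HFD placebo mice, although Rrm1 overlapped with LFD mouse 5. Rrm1 and Tk1 had log2 fold changes of 0.63 ± 0.12 (SE, adjusted p = 0.000825) and 1.13 ± 0.20 (SE, adjusted p = 0.000452) in HFD placebo against LFD fat, and of -0.65 ± 0.12 (SE, adjusted p = 0.00113) and -1.29 ± 0.20 (SE, adjusted p = 0.000254) in HFD estradiol against HFD placebo fat. The second Rrm1 call was lost with the lane as a term (-0.43, adjusted p = 0.0874), within lane 6 (adjusted p = 0.0689) and on FPKM as deposited. Rrm2, below the filter, had an exact permutation p of 0.00794 in both comparisons and unfiltered values of 1.00 ± 0.15 (SE, adjusted p = 0.000163) and -0.92 ± 0.15 (SE, adjusted p = 0.000603).

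Tyms, the thymidylate synthase, had 0.130, 0.173, 0.091, 0.133 and 0.136 in HFD estradiol mice, against 0.171, 0.240, 0.203, 0.170 and 0.173 in HFD placebo mice and 0.062, 0.097, 0.196, 0.183 and 0.107 in LFD mice. It did not separate the groups, with exact permutation p of 0.103 in HFD placebo against LFD fat and 0.0317 in HFD estradiol against HFD placebo fat, and neither passed after adjustment. Cdc6, which loads the Mcm ring onto origins, had 0.022, 0.0054, 0.013, 0.028 and 0.023 in HFD estradiol mice, against 0.095, 0.059, 0.087, 0.06 and 0.065 in HFD placebo mice and 0.01, 0.04, 0.015, 0.038 and 0.015 in LFD mice. Cdt1, its partner in loading, had 0.187, 0.094, 0.054, 0.061 and 0.049 in HFD estradiol mice, against 0.204, 0.352, 0.238, 0.121 and 0.227 in HFD placebo mice and 0.067, 0.043, 0.032, 0.055 and 0.096 in LFD mice. Cdc6 and Cdt1 were higher in HFD placebo than LFD fat by the exact permutation test (adjusted p = 0.0464), and HFD estradiol mouse 1 overlapped with the HFD placebo mice for Cdt1.

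Of the 12 cyclins and cyclin-dependent kinases, the unfiltered fit called 7 higher and 1 lower in HFD placebo than LFD fat. It called 11.2% of all genes higher and 9.9% lower there. In HFD estradiol against HFD placebo fat, 0 of the 12 were higher and 7 lower, against 6.05% and 8.01% of all genes. Of the 4 that drive mitotic entry, Ccna2, Ccnb1, Ccnb2 and Cdk1, all were higher in HFD placebo than LFD fat and lower in HFD estradiol than HFD placebo fat in the unfiltered fit. Ccna2, the S and G2 phase cyclin, had 0.108, 0.09, 0.118, 0.087 and 0.094 in HFD estradiol mice, against 0.773, 0.518, 0.817, 0.451 and 0.669 in HFD placebo mice and 0.071, 0.067, 0.102, 0.126 and 0.025 in LFD mice. Its log2 fold changes were 1.44 ± 0.13 (SE, adjusted p = 7.02e-07) and -1.34 ± 0.13 (SE, adjusted p = 3.83e-06). Ccnb1 had 0.018, 0, 0.026, 0.023 and 0.023 in HFD estradiol mice, against 0.240, 0.142, 0.295, 0.205 and 0.158 in HFD placebo mice and 0.063, 0, 0.03, 0.026 and 0.03 in LFD mice. Ccnb2 had 0.083, 0.052, 0.120, 0.054 and 0 in HFD estradiol mice, against 0.412, 0.332, 0.828, 0.231 and 0.440 in HFD placebo mice and 0.066, 0.064, 0.141, 0.04 and 0.047 in LFD mice. Both B-type cyclins, partners of Cdk1 in mitosis, were separated without overlap in HFD placebo mice. Cdk1 (chr10:69335146-69352938), the kinase of mitotic entry, had 0.077, 0.071, 0.082, 0.0092 and 0.073 in HFD estradiol mice, against 0.288, 0.493, 0.368, 0.194 and 0.276 in HFD placebo mice and 0.017, 0, 0.048, 0.041 and 0.072 in LFD mice. Unfiltered log2 fold changes in HFD placebo against LFD fat were 0.70 ± 0.09 (SE, adjusted p = 4.25e-05) for Ccnb1, 1.07 ± 0.17 (SE, adjusted p = 0.000406) for Ccnb2 and 0.99 ± 0.12 (SE, adjusted p = 4.64e-05) for Cdk1. The HFD estradiol against HFD placebo values were -0.76 ± 0.09 (SE, adjusted p = 5.51e-05), -1.12 ± 0.17 (SE, adjusted p = 0.000522) and -0.86 ± 0.12 (SE, adjusted p = 0.000288).

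The D-type cyclins, which link growth signals to the start of the cycle, differed among themselves. Ccnd1 (chr7:144929931-144939925) had 0.512, 0.681, 0.621, 0.880 and 0.436 in HFD estradiol mice, against 1.50, 1.68, 1.70, 1.45 and 1.42 in HFD placebo mice and 0.710, 0.584, 0.803, 1.13 and 0.753 in LFD mice. Ccnd2 had 2.44, 2.93, 2.83, 3.28 and 3.41 in HFD estradiol mice, against 4.28, 3.54, 2.52, 1.83 and 2.80 in HFD placebo mice and 3.20, 4.09, 4.28, 3.56 and 3.81 in LFD mice. Ccnd3 had 2.73, 2.91, 2.61, 2.90 and 1.93 in HFD estradiol mice, against 2.31, 1.79, 1.94, 2.13 and 1.99 in HFD placebo mice and 2.49, 2.61, 2.80, 2.39 and 3.03 in LFD mice. Ccnd1 was highest in all 5 HFD placebo mice, Ccnd2 overlapped among all groups, and Ccnd3 was lower in every HFD placebo mouse than in every LFD mouse. Ccnd1 had log2 fold changes of 0.80 ± 0.14 (SE, adjusted p = 0.000317) in HFD placebo against LFD fat and -1.06 ± 0.14 (SE, adjusted p = 5.38e-05) in HFD estradiol against HFD placebo fat. Ccnd2 had -0.36 ± 0.16 (SE, adjusted p = 0.102) and 0.04 ± 0.16 (SE, adjusted p = 0.904), and the first passed without HFD placebo mouse 1 (-0.49, adjusted p = 0.0191). Ccnd3 had -0.35 ± 0.11 (SE, adjusted p = 0.0156) and 0.32 ± 0.11 (SE, adjusted p = 0.0364). Both of its calls depended on the scaling, with 0.71 and -0.00 on FPKM as deposited and 0.060 in HFD placebo against LFD fat at a constant sum per library. The Ccnd3 call in HFD estradiol against HFD placebo fat was also lost without the filter (adjusted p = 0.0538), with the lane as a term (0.30, adjusted p = 0.252) and within lane 6 (adjusted p = 0.269). It was lost as well without HFD placebo mouse 2, 3 or 5 or HFD estradiol mouse 1, 2, 3 or 4 (adjusted p = 0.0678 to 0.0937).

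Cdk4 had 3.51, 3.06, 2.63, 3.01 and 2.53 in HFD estradiol mice, against 2.97, 3.82, 3.30, 2.33 and 3.27 in HFD placebo mice and 2.59, 2.23, 1.91, 2.15 and 2.36 in LFD mice. Cdk6 had 0.370, 0.248, 0.441, 0.526 and 0.214 in HFD estradiol mice, against 0.875, 1.22, 0.859, 0.556 and 0.665 in HFD placebo mice and 0.294, 0.650, 0.281, 0.265 and 0.141 in LFD mice. These partners of the D-type cyclins were both higher in HFD placebo than LFD fat, with log2 fold changes of 0.43 ± 0.12 (SE, adjusted p = 0.0104) for Cdk4 and 0.94 ± 0.21 (SE, adjusted p = 0.00231) for Cdk6, though mice of the groups overlapped. Cdk4 had -0.08 ± 0.12 (SE, adjusted p = 0.698) in HFD estradiol against HFD placebo fat. Cdk6 had -0.83 ± 0.21 (SE, adjusted p = 0.00836) there and lost its call with the lane as a term (-0.52, adjusted p = 0.271) and within lane 6 (adjusted p = 0.161). Against LFD fat, Cdk4 in HFD estradiol fat had 0.35 ± 0.12 (SE, adjusted p = 0.110), and it passed there at a constant sum per library.

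Cdk2, the kinase of the G1 to S step, spanned 0.367 to 0.581 scaled FPKM in HFD estradiol mice, 0.449 to 0.794 in HFD placebo mice and 0.498 to 1.00 in LFD mice. It passed in no comparison. Its partner Ccne1 spanned 0.069 to 0.199 in HFD estradiol mice, 0.174 to 0.260 in HFD placebo mice and 0.025 to 0.254 in LFD mice. It passed in none either. Ccne2 spanned 0.030 to 0.110 in HFD estradiol mice, 0.227 to 0.295 in HFD placebo mice and 0.095 to 0.278 in LFD mice. It did not pass in HFD placebo against LFD fat, and it was lower in HFD estradiol than HFD placebo fat in the unfiltered fit, by -0.64 ± 0.12 (SE, adjusted p = 0.00158).

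The 4 kinase inhibitors did not follow 1 pattern. Cdkn2c (chr4:109660876-109667189), which encodes p18 and blocks Cdk4 and Cdk6, was the most abundant of the 49 members in LFD and HFD estradiol fat, with 5.46, 9.67, 7.93, 6.32 and 6.64 in HFD estradiol mice, against 2.29, 3.11, 2.98, 4.30 and 2.77 in HFD placebo mice and 9.22, 9.58, 10.6, 7.28 and 9.29 in LFD mice. Every HFD placebo mouse lay below every mouse of the other groups. Its log2 fold changes were -1.52 ± 0.16 (SE, adjusted p = 3.24e-06) in HFD placebo against LFD fat and 1.16 ± 0.16 (SE, adjusted p = 8.42e-05) in HFD estradiol against HFD placebo fat. Within lanes they were -1.63 (adjusted p = 2.27e-05) and 0.98 (adjusted p = 0.0365), and neither passed on FPKM as deposited. For HFD estradiol against LFD fat the value was -0.36 ± 0.16 (SE, adjusted p = 0.248), with a 95% interval of -0.70 to -0.02.

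Cdkn1a (chr17:29090976-29100727), which encodes p21 and is induced by p53, had 0.630, 1.09, 2.22, 2.29 and 1.16 in HFD estradiol mice, against 2.10, 2.16, 1.98, 1.19 and 1.24 in HFD placebo mice and 0.388, 0.858, 1.70, 0.381 and 0.261 in LFD mice. HFD estradiol mice overlapped with both other groups, and of the LFD mice only mouse 3 reached the range of the HFD placebo mice. Cdkn1a was higher in HFD placebo than LFD fat at 1.18 ± 0.34 (SE, adjusted p = 0.0136). It did not pass in HFD estradiol against HFD placebo fat, -0.27 ± 0.34 (SE, adjusted p = 0.616), nor in HFD estradiol against LFD fat, 0.91 ± 0.34 (SE, adjusted p = 0.159), where the 95% interval was 0.18 to 1.64 and a constant sum per library, or leaving out LFD mouse 3 (adjusted p = 0.0305), brought it past the threshold.

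Cdkn1b, which encodes p27, had 1.07, 1.33, 1.12, 1.13 and 1.59 in HFD estradiol mice, against 0.831, 1.00, 0.884, 0.903 and 0.992 in HFD placebo mice and 0.928, 1.46, 1.07, 1.29 and 1.22 in LFD mice. It had -0.29 ± 0.11 (SE, adjusted p = 0.0540) in HFD placebo against LFD fat and 0.34 ± 0.11 (SE, adjusted p = 0.0346) in HFD estradiol against HFD placebo fat. The second Cdkn1b call was lost with the lane as a term (0.31, adjusted p = 0.264), within lane 6 (adjusted p = 0.227), without the filter (adjusted p = 0.0516) and under each other scaling. It was also lost without HFD placebo mouse 1, 3 or 4 or HFD estradiol mouse 2 or 5 (adjusted p = 0.0550 to 0.0971). The first passed without LFD mouse 1 or 3 or HFD estradiol mouse 5 (adjusted p = 0.0195 to 0.0490). Cdkn2a, the locus of p16 and p19ARF, had 0.188, 0, 0.04, 0 and 0 in HFD estradiol mice, against 0, 0, 0.099, 0.101 and 0.087 in HFD placebo mice and 0, 0, 0, 0 and 0 in LFD mice. It was listed at 0 in all LFD mice, so no fold is given. The exact permutation p was 0.167 in HFD placebo against LFD fat and 0.841 in HFD estradiol against HFD placebo fat.

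All 4 transcription factors were below the filter. E2f1, an activator of replication genes, had 0.171, 0.092, 0.174, 0.176 and 0.117 in HFD estradiol mice, against 0.286, 0.343, 0.408, 0.163 and 0.240 in HFD placebo mice and 0.107, 0, 0.102, 0.132 and 0.257 in LFD mice. Foxm1, an activator of mitotic genes, had 0.018, 0.028, 0.026, 0.041 and 0.047 in HFD estradiol mice, against 0.173, 0.195, 0.248, 0.171 and 0.142 in HFD placebo mice and 0.043, 0.042, 0.093, 0.053 and 0.109 in LFD mice. Mybl2, the Myb protein that joins the MuvB core, had 0.032, 0.013, 0.012, 0.035 and 0 in HFD estradiol mice, against 0.044, 0.072, 0.086, 0.031 and 0.084 in HFD placebo mice and 0.051, 0, 0, 0 and 0.018 in LFD mice. Foxm1 alone of the 4 did not overlap in HFD placebo against LFD mice, with an unfiltered log2 fold change of 0.46 ± 0.08 (SE, adjusted p = 0.000725). It had -0.62 ± 0.08 (SE, adjusted p = 0.000127) in HFD estradiol against HFD placebo fat. E2f1 had 0.56 ± 0.16 (SE, adjusted p = 0.0225) and -0.43 ± 0.16 (SE, adjusted p = 0.101). Mybl2 had 0.25 ± 0.06 (SE, adjusted p = 0.0116) and -0.22 ± 0.06 (SE, adjusted p = 0.0310). E2f2, a second activator E2F, spanned 0.022 to 0.078 scaled FPKM in HFD estradiol mice, 0.078 to 0.147 in HFD placebo mice and 0.028 to 0.089 in LFD mice, with unfiltered values of 0.21 ± 0.08 (SE, adjusted p = 0.0781) and -0.26 ± 0.08 (SE, adjusted p = 0.0498).

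A wider list of 129 other cell cycle genes was read in the same way. It too was chosen with earlier results of these data known, so its counts are not independent of the members' counts. Of 50 other mitotic genes, 39 were higher and 1 lower in HFD placebo than LFD fat in the unfiltered fit, and 0 were higher and 37 lower in HFD estradiol than HFD placebo fat. Of 40 other replication genes, 15 were higher and 0 lower, and then 0 higher and 13 lower. Of 39 other regulators of the cycle, 6 were higher and 1 lower, and then 2 higher and 4 lower. That fit called 11.2% of all genes higher and 9.9% lower in the first comparison, and 6.05% higher and 8.01% lower in the second, so the regulators stood near the share of all genes. None of the 129 passed in HFD estradiol against LFD fat in either limma fit, with an unadjusted p below 0.05 for 10 in the unfiltered fit and 10 in the exact permutation test, against 14% and 13.9% of all genes. The median log2 fold change over the 129 was 0.31 in HFD placebo against LFD fat and -0.30 in HFD estradiol against HFD placebo fat.

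Among the other mitotic genes, Prc1, which bundles the midzone spindle, averaged 0.0846 ± 0.029 scaled FPKM in HFD estradiol mice, 0.597 ± 0.20 in HFD placebo mice and 0.0799 ± 0.015 in LFD mice (SD, n = 5 each). Its log2 fold changes were 1.33 ± 0.14 (SE, adjusted p = 3.39e-06) in HFD placebo against LFD fat and -1.31 ± 0.14 (SE, adjusted p = 1.02e-05) in HFD estradiol against HFD placebo fat. Nusap1, Tubb5 and Incenp had log2 fold changes of 0.96, 0.91 and 0.98 in HFD placebo against LFD fat. Nusap1, Incenp and Cdca3 had -0.86, -0.93 and -1.19 in HFD estradiol against HFD placebo fat.

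Among the other replication genes, Uhrf1 and Dnmt1, which copy DNA methylation onto new strands, had log2 fold changes of 1.01 and 0.94 in HFD placebo against LFD fat and of -1.15 and -0.73 in HFD estradiol against HFD placebo fat. Lig1, the replicative DNA ligase, had 0.76 and -0.56, and its second call was lost with the lane as a term (-0.29, adjusted p = 0.385). Gmnn, the geminin that restrains Cdt1, had 1.08 in HFD placebo against LFD fat, and the flap nuclease Fen1 had -0.81 in HFD estradiol against HFD placebo fat. With the lane as a term Fen1 had -0.63 and lost its call (adjusted p = 0.0864).

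Among the other regulators, Gadd45b, Mdm2, Trp53 and Tfdp1 were higher in HFD placebo than LFD fat, by 1.31, 0.60, 0.58 and 0.32 on the log2 scale. Trp53 encodes p53 and Mdm2 its ubiquitin ligase. Gadd45b, Mdm2 and Tfdp1 had -1.12, -0.53 and -0.28 in HFD estradiol against HFD placebo fat. With the lane as a term they had -0.88, -0.43 and -0.23 and did not pass (adjusted p = 0.0671, 0.0629 and 0.274). The inhibitor gene Cdkn1c, which encodes p57, averaged 1.20 ± 0.21 scaled FPKM in HFD estradiol mice and 0.667 ± 0.030 in HFD placebo mice (SD, n = 5 each), a log2 fold change of 0.65 ± 0.12 (SE, adjusted p = 0.000947).

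Markers of some other cell types moved with the groups. By the filtered fit, all 13 macrophage markers found were higher in HFD placebo than LFD fat, against 17.2% of all genes. In HFD estradiol fat 12 were lower than in HFD placebo fat, against 12.7%, and 5 of 13 higher than in LFD fat, against 2.66%. With the lane as a term, 6 of 13 were lower in HFD estradiol than HFD placebo fat, against 4.42% of all genes. In that fit 3 of 13 were higher than in LFD fat, against 63 of 10760 genes. Within lane 6, against 4.67% of all genes, 6 of 13 macrophage markers were lower. Their sum ranged from 79.2 to 211 scaled FPKM in HFD estradiol mice, from 231 to 624 in HFD placebo mice and from 52.6 to 128 in LFD mice, and none was at 0 throughout a group. In bulk fat, more cells of a type and more RNA per cell cannot be told apart.

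The mitotic sum was 1.06 to 1.71% of the macrophage sum in HFD estradiol mice, 2.00 to 2.70% in HFD placebo mice and 1.41 to 2.92% in LFD mice. HFD placebo and LFD mice overlapped on that ratio, and HFD estradiol mice lay below all HFD placebo mice. The replication sum was 2.75 to 5.33%, 2.05 to 3.50% and 3.42 to 9.46% of the macrophage sum in the same 3 groups. The sum of 9 T and NK cell markers ranged from 0.820 to 2.08 in HFD estradiol mice, 2.22 to 3.84 in HFD placebo mice and 0.964 to 2.06 in LFD mice. Il7r carried most of that difference. Without Il7r the sum ranged from 0.706 to 1.53 in HFD estradiol mice. It was 0.553 to 1.98 in HFD placebo mice and 0.906 to 1.90 in LFD mice. The unfiltered fit called 1 of the 9 higher in HFD placebo than LFD fat, against 11.2% of all genes. That 1 marker was Il7r. The sum of 8 progenitor and fibroblast markers was 128 to 202 in HFD estradiol mice, 84.5 to 160 in HFD placebo mice and 69.2 to 108 in LFD mice. The sum of 7 endothelial markers averaged 20.7 ± 1.63 in HFD estradiol mice, 20.6 ± 3.15 in HFD placebo mice and 23.1 ± 1.29 in LFD mice (SD, n = 5 each). Both sums overlapped between HFD placebo mice and each other group, and Dcn gave most of the progenitor sum. By the filtered fit, 3 of 8 progenitor markers were higher and 0 lower in HFD placebo than LFD fat. For the 7 endothelial markers those counts were 0 and 2, where 17.2% and 17.3% of all genes were called. In HFD estradiol against HFD placebo fat they were 3 and 1 for progenitor markers and 1 and 0 for endothelial markers. Over all genes 11% and 12.7% were called there. B and plasma cell markers ranged from 2.99 to 10.4, 1.94 to 6.86 and 8.26 to 14.7 in HFD estradiol, HFD placebo and LFD mice. The sum of 10 adipocyte markers was 1690 to 2387 in HFD estradiol mice. It was 927 to 1546 in HFD placebo mice and 1668 to 2629 in LFD mice. Fabp4 and Cfd gave most of it. By the filtered fit, 9 of the 10 were lower in HFD placebo than LFD fat, against 17.3% of all genes. Lep was higher there. In HFD estradiol against HFD placebo fat 8 were higher, against 11% of all genes, and Lep was lower. The part of these markers and of library depth in the cell cycle differences was not tested.

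**Figure D5:**
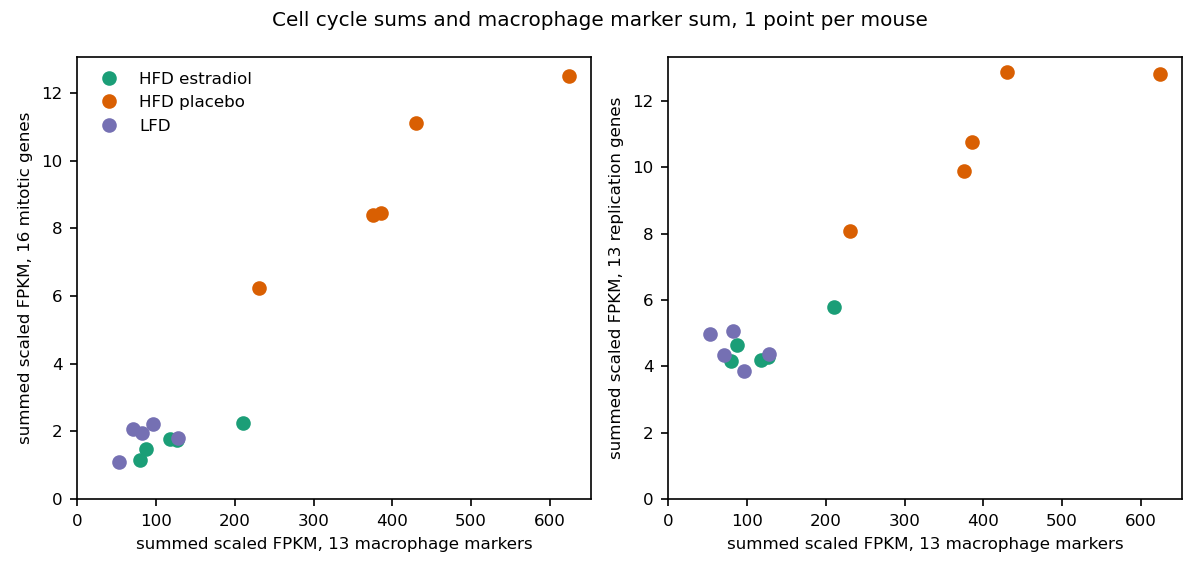
Summed scaled FPKM of the 16 mitotic genes (left) and the 13 replication genes (right) against the sum of 13 macrophage markers, 1 point per mouse. HFD placebo mice sit at macrophage sums of 231 to 624 with mitotic sums of 6.23 to 12.5, and the other mice at macrophage sums up to 211 with mitotic sums up to 2.23.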

How the data were processed

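Total RNA of 15 fat pads was sequenced from stranded, rRNA-depleted libraries, per the labels' protocols, with RNA integrity numbers above 7. The authors deposited 1 table of FPKM values per library, made with STAR and Cufflinks on mm10, per the submitters' processing notes; the sources used here give neither versions nor the gene annotation. FPKM values are not counts, so no count test was run. Each library was divided by a median-of-ratios factor (0.481 to 3.23) over 5874 genes above 0 in all 15 libraries with a mean FPKM of at least 1, because Mir6236 alone held 10.2 to 53.1% of a library's FPKM sum.

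The filter kept 10760 genes that reached a scaled FPKM of 0.25 in 5 or more libraries. For these, limma 3.58.1 (R 4.3.3, trend and robust moderation) was fitted to log2(scaled FPKM + 0.25) of all 15 libraries, with Benjamini-Hochberg adjustment over all tested genes and a threshold of 0.05. Fold changes on this scale understate the change of low genes. Members below the filter had an exact two-sided permutation test (252 relabelings), adjusted over 16111 genes above 0 in at least 5 libraries. Both tests were also run on simulated data. In that run the adjusted exact test recovered none of the changed genes, as too few were changed for its smallest p to pass. The unadjusted exact test recovered them all, but that measure was added after the adjusted result had been seen. Its recovery of genes with the spread of the low members was not tested. The unadjusted p is given beside the adjusted one as a description, and no member is called by it. Fragments behind a value were estimated from the steps between low values, where 54.2 to 66.0% of values lay on a whole multiple within 2%, so they are approximate, and no count test was made from them. Lanes were read from the file names.

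Members, roles and gene lists were chosen with earlier results of these data known. All 49 members are accounted for; values per mouse are given for the genes named by rule and for each other member called by the filtered fit or the exact test, and ranges for the rest. Up to 4 called genes with the smallest adjusted p were named per other list and comparison. Of 88 marker symbols 3 were not found. Coordinates of genes are GENCODE's on GRCm38. Replicate numbers name different mice: of 15 same-numbered pairs, 2 had a correlation of deviations above 0.1, so they were not used as pairs.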

Additional observations from a re-analysis of the deposited data

Results flagged for a closer look

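In each group of 5 mice, 1 value was called far from the others where its gap to the nearest, divided by the group's range, exceeded Dixon's critical value of 0.71. Of 147 sets of 5 values (49 genes in 3 groups), 8 were far out (5.44%), and chance gives about 1 in 20. HFD estradiol mouse 1 was the highest of its group for Pcna, at 2.23 scaled FPKM against 1.46 to 1.58 in the other HFD estradiol mice, for Tk1, at 0.291 against 0.041 to 0.084, and for Cdkn2a, at 0.188 against 0 to 0.040. The same mouse had the highest macrophage marker sum of its group, 211 scaled FPKM against 79.2 to 127 in the other 4, and the part of that in its values was not tested. HFD estradiol mouse 4 was the lowest for Cdk1, at 0.0092 against 0.071 to 0.082. HFD estradiol mouse 5 was the lowest for Ccnd3, at 1.93 against 2.61 to 2.91. HFD placebo mouse 3 was the highest for Kif20a, at 0.482 against 0.254 to 0.285. LFD mouse 3 was listed at 0 for Tk1, against 0.154 to 0.225, and was the highest for Ccnb2, at 0.141 against 0.040 to 0.066.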

How the results depend on the processing

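None of the 28 filtered members changed its call under another pseudocount or without trend and robust moderation. With the lane as a term and with the exact test, calls in HFD estradiol against HFD placebo fat were lost; scaling, filter and left-out libraries also moved calls. A change of sign between estimates neither of which passed was not counted as a reversal. On FPKM as deposited, 5061 genes were higher and 27 lower in HFD placebo against LFD fat, with 0 members lower and 0 below-filter members called; 25 were higher and 451 lower in HFD estradiol against HFD placebo fat, with 0 members higher; and 87 were higher and 2 lower in HFD estradiol against LFD fat. Ccnd3 then reversed, to 0.71 and -0.0020, and at a constant sum to 0.060 in HFD placebo against LFD fat. A constant sum gave 3283 and 271 genes, with 1 member lower and 0 below the filter, then 342 and 878 with 1 member higher, then 718 and 38 with 2 members higher. Without Mir6236 in that sum, 1128 genes and 1 member were lower in HFD placebo against LFD fat, 1 member was higher in HFD estradiol against HFD placebo fat, and 133 genes were lower in HFD estradiol against LFD fat.

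The log2 ratio of summed levels on FPKM as deposited was, for replication genes, 2.59 in HFD placebo over LFD, -1.67 in HFD estradiol over HFD placebo and 0.92 in HFD estradiol over LFD. In that order it was 3.62, -2.85 and 0.76 for mitotic genes, 1.60, -0.80 and 0.80 for cyclins and kinases, 0.53, 0.17 and 0.70 for inhibitors, and 2.57, -1.78 and 0.79 for transcription factors. The inhibitor sum in HFD placebo over LFD thus changed sign, from -0.94 as scaled. At a constant sum it was 1.70 in HFD placebo over LFD and 0.45 in HFD estradiol over LFD for replication genes, 2.76 and 0.30 for mitotic genes, 0.71 and 0.34 for cyclins and kinases, and -0.45 and 0.26 for inhibitors.

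A filter of 1 left 10 members among 5615 genes tested. In HFD placebo against LFD fat 6 members and 1196 of all genes were called higher. In HFD estradiol against HFD placebo fat 4 members and 881 of all genes were called lower. No filter called 36 members higher in the first, and 1 higher and 35 lower in the second. Lane as a term gave 363 genes higher and 476 lower in HFD estradiol against HFD placebo fat, with 1 member higher, and 63 and 60 in HFD estradiol against LFD fat. Within lane 6 there were 386 and 502, with 1 member higher, and within lane 5 no below-filter member (0) was called. The exact test used for all genes called 0 higher and 0 lower, and 0 members, in HFD estradiol against HFD placebo fat, and 0 genes in HFD estradiol against LFD fat, at granular p-values that cannot show stability. The shorter window of 150 bases before the start held an E2F match in 1.35%, a CHR match in 12.0% and a CCAAT box in 28.6% of all windows. The cause of these shifts was not tested.

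Leaving out each library gave 1634 to 1932 genes higher and 1579 to 1894 lower, and 21 members higher and 2 to 3 lower of 28 in HFD placebo against LFD fat. Without any 1 LFD or HFD placebo library, 0 below-filter members were called there; the HFD estradiol libraries do not enter that test. It gave 905 to 1270 and 1116 to 1452 genes, and 1 to 3 members higher and 18 to 19 lower, in HFD estradiol against HFD placebo fat. It gave 172 to 331 and 150 to 281 genes and 0 to 1 members in HFD estradiol against LFD fat. With the replicate number as a block, 1845 genes were higher and 1813 lower in HFD placebo against LFD fat, 1173 and 1354 in HFD estradiol against HFD placebo fat, and 283 and 242 in HFD estradiol against LFD fat; same-numbered pairs correlated at -0.1575 to 0.2852, and 3 of 15 correlated best with their own number. Depth limits the low members, whose values rest on few fragments.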
